A study of Homo sapiens with 6 samples.

Results

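The peaks described here were recovered with the odd set of DINO probes, on chromatin without and with RNase treatment. DINO is a long noncoding RNA that DNA damage induces and that acts in the p53 response. In ChIRP-seq, biotinylated oligonucleotides that match an RNA capture crosslinked chromatin, and the DNA in it is sequenced. RNase digests the RNA and serves as the control for capture that does not go through it. The probes were split into an odd and an even set, and a true contact of the RNA is usually sought at places that both sets recover and that RNase removes.

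Both odd libraries came from U2OS osteosarcoma cells, an established human line in which p53 is wild-type. The cells had been exposed to doxorubicin, a DNA-damaging drug, at 0.2 µg/mL for 24 h and fixed with glutaraldehyde. They differed, as far as the labels say, in the RNase treatment alone. All peaks of both lists on chromosomes 1 to 22 and X were taken, which gave 34695 untreated and 57466 RNase-treated odd peaks. These 92161 peaks were part of 314001 peaks in the 4 peak lists of the series. The names of the peaks inside each list carried the same probe set and RNase state as the labels. Of the 6 samples, the 2 inputs were not analysed here. There was 1 library for each condition, so no spread between replicates could be measured and no p-value between libraries is given. The number of reads is unknown, and a more deeply sequenced library can give more peaks. The sequence under each peak was not analysed here.

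A peak was called shared when it overlapped a peak of the other odd list by at least 1 bp. In the untreated list 31777 peaks were shared and 2918 were found only without RNase, which is 8.41% (Wilson 95% interval 8.12 to 8.71, counting error only). In the RNase-treated list 31737 peaks were shared and 25729 were found only after RNase, which is 44.8% (44.4 to 45.2). Most untreated odd positions were thus also in the RNase-treated list, and unmatched peaks were more frequent in the longer, RNase-treated list. When each list was cut to its 34695 strongest peaks, the shared share was 80.4% of the untreated and 80.2% of the RNase-treated peaks. Since nearly all matches are 1 to 1, lists of equal length must give nearly equal shares. With reciprocal overlap of at least 50%, 84.8% of the untreated peaks were shared.

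Unmatched peaks were weak in both lists. Fold enrichment, the authors' ratio of the signal at a summit to the background modelled by the peak caller, had a median of 6.06 in untreated-only peaks and 11.1 in the shared peaks of the same list. After RNase the medians were 6.88 for RNase-only peaks and 20.5 for shared peaks. Each list was divided into 10 equal bins by p-value. None of the 3470 untreated peaks in the strongest bin was unmatched, which allows a share of up to 0.111% by the Wilson interval. The unmatched share reached 1.18% in the fifth bin and 30.8% in the weakest. After RNase it was 0 of 5747 peaks in the strongest bin, 38.1% in the fifth and 91.6% in the weakest. Peaks with a fold of 20 or more numbered 4 among the untreated-only and 181 among the RNase-only peaks, against 8365 and 16174 shared peaks of the same lists.

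**Figure D1:**
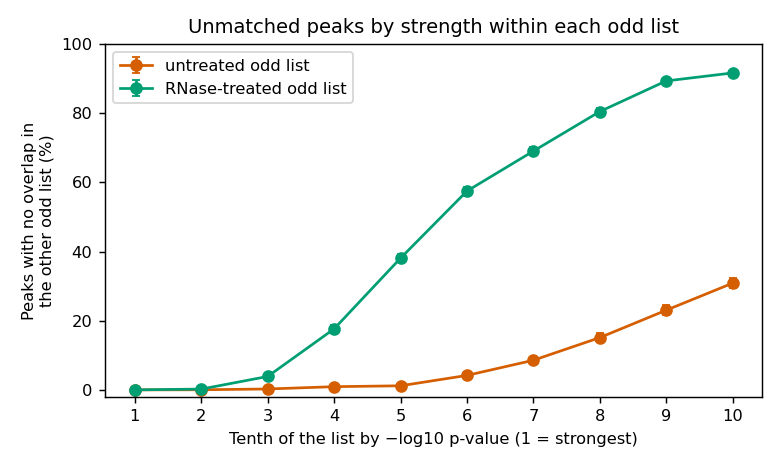
Share of peaks with no overlap in the other odd list (percent) in 10 equal bins of the untreated odd list (orange) and of the RNase-treated odd list (green), ordered by −log10 p-value from the strongest bin (1) to the weakest (10). Bars are Wilson 95% intervals. The share rose from 0 in the strongest bin to 30.8% and 91.6% in the weakest.

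The positions just inside and just outside the 1 bp rule were of this weak kind, with an exception. The smallest overlap was 1 bp on chromosome 17, where an untreated peak at 77440929 to 77441052 (fold 6.12) met an RNase-treated peak that ended at 77441182 (fold 5.24). An overlap of 2 bp was found on chromosome 3 at 173174924 to 173174925 (folds 5.47 untreated and 5.90 RNase-treated). The other was on chromosome 10 at 64520368 to 64520369, where the untreated peak had a fold of 22.3 and the RNase-treated peak one of 8.29. Outside the rule, abutting peaks with 0 bp between them were found on chromosome 21, where the untreated peak at 36625182 to 36625301 (fold 5.26) adjoined an RNase-treated peak of fold 7.88. Further such neighbours lay at 37893605 to 37893724 on the same chromosome (untreated fold 5.55) and at 188279511 to 188279631 on chromosome 3 (untreated fold 5.49). From the RNase-treated side, a peak at 36839076 to 36839203 on chromosome 21 (fold 5.90) adjoined an untreated peak of fold 4.62.

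The strongest shared positions had summits within 50 bp of each other in the 2 lists. Pairs were ordered by the smaller of their folds. The first was at 36644595 to 36646433 on chromosome 6 without RNase (fold 186) and at 36645295 to 36646440 with RNase (fold 300.1). By general knowledge of the hg19 map, since no annotation was used, this is the 5′ end of CDKN1A. That is the gene of the cell cycle inhibitor p21, beside which DINO is transcribed. On that ground alone the place is called the DINO locus below. The next pair was on chromosome 20 at 50578710 to 50579337 (fold 171 untreated, 199.6 with RNase), with summits 1 bp apart.

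The third was on chromosome 12 at 25485842 to 25486405 (fold 165 untreated, 305 with RNase), with summits 50 bp apart. On chromosome 10 a pair at 60401164 to 60401753 had folds of 159 and 246, and on chromosome 15 a pair at 57256494 to 57257112 had folds of 159 and 318. All 8 pairs that led by this order were 476 bp or wider without RNase. The sixth, at 2027715 to 2028321 on chromosome 18, had folds of 157 and 220.1. The last of the 8 were at 207449892 to 207450367 on chromosome 2 (154 and 269) and at 32051932 to 32052531 on chromosome 12 (152 and 261). Each fold was made within its own list, so the higher number after RNase does not measure more recovery. The summits of these 8 pairs differed by between 0 and 50 bp.

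Over all shared untreated peaks the summit lay a median of 19 bp from the closest summit of an overlapping RNase-treated peak (order-statistic 95% interval 18 to 19, n = 31777). The shift had no preferred direction, with a signed median of 0 bp and quartiles of −18 and 19 bp. It was within 10 bp for 30.8% of the peaks, within 50 bp for 87.2% and within 100 bp for 98.7%. Stronger peaks had smaller shifts up to a point. The median was 36 bp at untreated folds under 5, 19 bp at folds of 10 to 15 and 11 bp at folds of 50 to 100, and then 17 bp for the 311 peaks with a fold of 100 or more.

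A shift above 200 bp was found for 71 peaks and one above 500 bp for 6. The 3 largest lay at wide or divided peaks. The first, 778 bp, was on chromosome 22, where 1 RNase-treated peak at 35444675 to 35446324 overlapped 2 untreated peaks, one from 35444740 to 35445837 with a fold of 64.8 and one from 35445926 to 35446395 with a fold of 20.9. On chromosome 12 the pair at 132873273 to 132874710 was nearly the same interval in both lists, yet its summits were 690 bp apart. On chromosome 9 an RNase-treated peak at 113592118 to 113593080 overlapped 3 untreated peaks, and the summit of the first was 675 bp away. In all, 65 RNase-treated peaks overlapped 2 or 3 untreated peaks, and 26 untreated peaks overlapped 2 RNase-treated peaks. The RNase-treated peaks of the first kind had a median width of 520 bp and the untreated peaks of the second kind one of 318 bp.

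Shared peaks were mostly wider after RNase. Of 31623 pairs in which each peak overlapped only the other, the RNase-treated peak was wider in 25697 (81.3%), the untreated peak in 5750 (18.2%), and 176 were of equal width. The median difference was 41 bp, and it was spread over both sides, since the RNase-treated peak began a median of 16 bp earlier and ended a median of 16 bp later. The untreated peak lay wholly inside the RNase-treated one in 56.5% of the pairs, against 5.98% for the reverse. In the even probe set, the RNase-treated peak was the wider one in 68.8% of 84601 such pairs. The least width in the odd lists was 120 bp without and 128 bp with RNase. An untreated odd peak narrower than 128 bp thus had a wider partner by construction. Of the 31777 shared untreated peaks, 2887 were 120 bp wide. The part of this limit in the odd-set shares and median difference was not tested.

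The DINO locus was the largest departure from this pattern. Its untreated peak was 1839 bp wide and its RNase-treated peak 1146 bp, a difference of 693 bp, the largest excess of untreated width among the 31623 pairs. The second largest was 516 bp, on chromosome 7 at 46217613 to 46218274, where the RNase-treated peak covered 146 bp. The third was 273 bp, on chromosome 1 at 83397474 to 83397874. An excess of untreated width of at least 200 bp was found in 15 pairs, against 661 pairs with that excess after RNase. The largest excess after RNase was 682 bp, on chromosome 3 at 168562724 to 168563526, where the untreated peak was 121 bp wide. The next were on chromosome 6 at 74229901 to 74230529 (505 bp wider) and on chromosome 18 at 58211468 to 58211990 (373 bp wider).

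**Figure D2:**
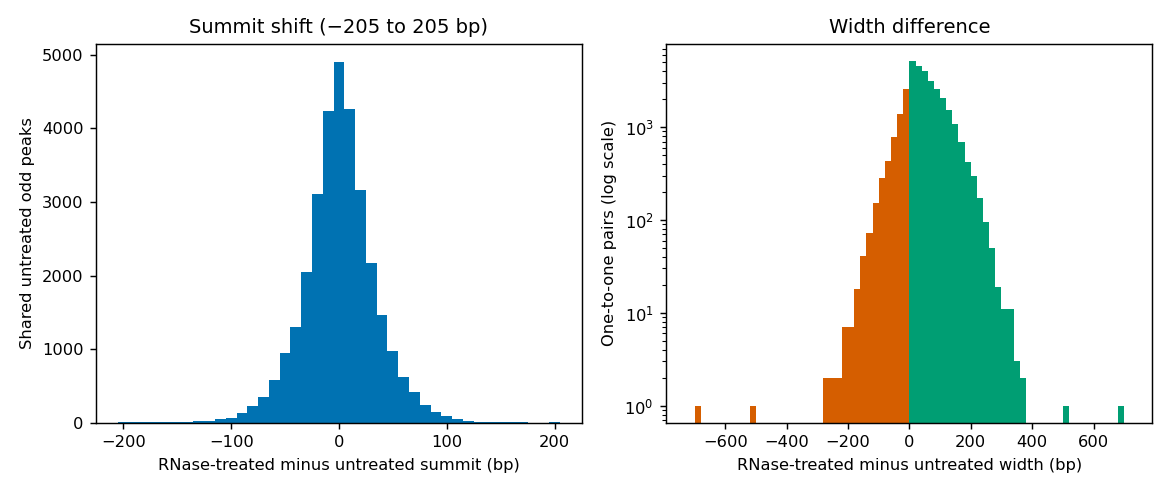
Left, RNase-treated minus untreated summit position (bp, bins of 10 bp) for shared untreated odd peaks, with the number of peaks on the vertical axis; shifts beyond the axis are not drawn. Right, RNase-treated minus untreated width (bp, bins of 20 bp) for the 31623 one-to-one pairs on a log count axis, with untreated peaks wider in orange and RNase-treated peaks equal or wider in green. Summit shifts centre on 0, most width differences lie above 0, and the isolated bar farthest to the left is the DINO locus with an untreated excess of 693 bp.

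Unmatched peaks were narrow, many of them at the least width that each list held. That least width was 120 bp in the untreated and 128 bp in the RNase-treated list. Of the untreated-only peaks 44.2% had it, against 9.09% of the shared peaks in the same list. The shares were 40.4% of the RNase-only peaks and 3.56% of the shared RNase-treated peaks. Median widths were 122 bp for untreated-only peaks and 181 bp for shared peaks of the untreated list, and 133 bp for RNase-only peaks and 244 bp for shared peaks of the RNase-treated list.

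Among peaks of like fold the classes were closer in width. At untreated folds of 5 to 6, unmatched and shared peaks had the same median width of 120 bp. At folds of 8 to 10 it was 141 bp for untreated-only and 148 bp for shared peaks, and at 12 to 15 it was 175 and 191 bp. After RNase it was 148 bp for RNase-only and 153 bp for shared peaks at folds of 8 to 10. A wider peak also has more room to be overlapped, so width was not independent of the class.

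Wide unmatched peaks were single cases. A width of at least 500 bp was reached by 1 untreated-only peak and 1 RNase-only peak, against 839 and 1826 shared peaks. The untreated-only one lay on chromosome 7 at 1658135 to 1658740 (606 bp, fold 6.40), where the even lists had peaks with folds of 62.7 without and 67.6 with RNase. The RNase-only one lay on chromosome 12 at 54359713 to 54360221 (509 bp, fold 11.1), 855 bp from an untreated odd peak. The widest shared peaks were the DINO locus in the untreated list and the chromosome 22 peak at 35444675 to 35446324 (1650 bp) in the RNase-treated list.

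The strongest untreated-only peaks were places where no RNase-treated peak of the same probe set overlapped. Signal after RNase that was not called as a peak was not examined. The highest fold was 32.5, on chromosome 3 at 197181970 to 197182200, with the nearest RNase-treated odd peak 13038 bp away. The next was on chromosome 9 at 123655717 to 123656057 (fold 22.6), only 156 bp from an RNase-treated odd peak. On chromosome 11, at 196462 to 196730 (fold 21.6), an RNase-treated odd peak lay 319 bp away, and on chromosome 4, at 119726827 to 119727087 (fold 20.1), one lay 1311 bp away.

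The fifth was at 8936949 to 8937258 on chromosome 12 (fold 19.4), and the sixth at 197873161 to 197873450 on chromosome 1 (19.1). The others were at 25258972 to 25259206 on chromosome 2 (17.6) and at 85999330 to 85999628 on chromosome 9 (17.4). The one on chromosome 1 was 131 bp from an RNase-treated odd peak, and the other 3 were at least 25252 bp away. Of these 8 peaks, 3 thus lay within 1 kb of an RNase-treated odd peak. Neither even list had a peak over any of the 8. In the whole untreated odd list only 3.78% of peaks overlapped an untreated and 4.04% an RNase-treated even peak. A count of 0 among 8 therefore does not set these peaks apart.

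The strongest RNase-only peaks had no untreated odd peak within 4 kb. The highest fold was 34.1, on chromosome 16 at 55946364 to 55946679. Next came 20091670 to 20091896 on chromosome 11 (33.9), 35241811 to 35242033 on chromosome 21 (33.1) and 8879069 to 8879303 on chromosome 17 (32.8). The others were 67779162 to 67779410 on chromosome 15 (32.3), 101346405 to 101346677 on X (32.0), and 31497149 to 31497385 (31.2) and 166091201 to 166091445 (30.7) on chromosome 4. The nearest untreated odd peak was between 4276 and 109025 bp away, a range that overlaps the 131 to 38225 bp of the 8 untreated-only peaks, and the untreated list is the shorter one to search. Neither even list had a peak over any of these 8 either, where the shares over the whole RNase-treated odd list were 3.02% and 3.28%.

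Untreated-only peaks coincided with peaks of the even probe set more often than shared peaks did. Of the 34695 untreated odd peaks, 3.78% overlapped an untreated even peak and 4.04% an RNase-treated even peak. Among untreated-only peaks these shares were 9.53% (278 of 2918, Wilson 95% interval 8.51 to 10.6) and 9.46% (8.45 to 10.6), and among shared peaks of the same list 3.25% (3.06 to 3.45) and 3.54% (3.34 to 3.75). The narrower, weaker class thus had the higher share, and it was alike for even lists of both RNase states. Most of these peaks, 259, overlapped a peak in both even lists.

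The RNase-treated list did not show this. Of its 57466 peaks, 3.02% overlapped an untreated even peak and 3.28% an RNase-treated even peak. For RNase-only peaks the shares were 2.48% and 2.65%, and for shared peaks 3.46% and 3.79%. In the even set the untreated-only peaks overlapped an untreated odd peak less often (0.851%) than shared even peaks did (1.32%). No test was run on these differences, which compare single libraries.

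The higher share of untreated-only peaks was seen at each fold up to 12. At folds under 5 it was 15.8% for untreated-only peaks (n = 361) and 2.77% for shared peaks (n = 722). At folds of 6 to 7 it was 9.45% and 3.34%, and at 8 to 10 it was 8.15% and 3.12%. At folds of 12 and more there were 28 or fewer untreated-only peaks in a bin, too few for a comparison. The share for untreated-only peaks fell to 5.16% when both odd lists were limited to −log10 q-values from 10 up, to 6.69% with reciprocal overlap, and to 6.10% with equal numbers of peaks, where shared untreated peaks had 3.25%, 3.25% and 3.21%.

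The even peaks under untreated-only odd peaks were among the strongest of their own list. Their median fold in the untreated even list was 65.6 (interval 59.999 to 69.5), against 14.6 under shared odd peaks and 10.9 over the whole untreated even list. Of the 278 overlaps, 204 (73.4%) were with an even peak in the top 10% of its list by fold, against 27.6% of the overlaps of shared odd peaks. For RNase-only peaks the median even fold was 14.99 and the share in the top 10% was 27.4%. The odd peaks at these places were weak, with a median fold of 6.005. Among all untreated odd peaks at untreated even peaks, 80.6% had an odd fold under 10 where the even fold was 50 to 100, and 65.7% where it was 100 or more, against 37.7% where the even fold was under 10. For RNase-treated odd peaks these shares were 57.6%, 41.1% and 34.2%. In the whole lists, 16339 of 34695 untreated and 26441 of 57466 RNase-treated odd peaks had a fold under 10. Whether the weak odd peaks at strong even peaks were recovered by the odd probes themselves was not tested. Of the 278 overlaps of untreated-only peaks, 94.2% were with an even peak also present in the RNase-treated even list. The share was 84.9% for overlaps of shared untreated odd peaks, 87.0% for RNase-only ones and 80.9% over the whole untreated even list.

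Examples, chosen after their values were seen, lay where the even fold was highest. On chromosome 4, an untreated-only odd peak from 181487022 to 181487246 (fold 6.38) and a second from 181487426 to 181487545 (fold 5.06) lay within 1 even peak at 181486828 to 181488757 with an untreated fold of 148. On chromosome 17 an untreated-only odd peak at 715767 to 716119 (fold 7.82) lay within an even peak of fold 148 at 715600 to 716467. Summits of odd and even peaks were a median of 40 bp apart for untreated-only peaks and 84 bp apart for shared ones.

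Below, the same overlaps are counted from the even side, for shared and unmatched odd peaks together. Of the 48314 untreated even peaks with a fold under 10, 0.807% held an untreated odd peak and 1.21% an RNase-treated one. The shares were 7.44% and 6.04% at even folds of 50 to 100, and 43.7% (66 of 151, interval 36.1 to 51.7) and 36.4% (55 of 151, 29.2 to 44.3) at 100 or more. In the RNase-treated even list, where 2129 peaks reached a fold of 100, the shares at that fold were 13.1% and 11.2%, against 0.825% and 1.19% at folds under 10. Odd peaks of both RNase states were thus more frequent at the strongest positions of each even list. A fold of 100 was reached by 151 untreated and 2129 RNase-treated even peaks. The shares at that fold rest on unlike parts of the even lists and do not compare them. Even peaks also widened with fold, from a median of 136 bp under 10 to 518 bp at 100 or more, and the part of width in these shares was not tested. In the other direction, 4.19% of untreated odd peaks with a fold under 10 and 8.36% of the 311 with a fold of 100 or more overlapped an untreated even peak. With the RNase-treated even list these shares were 4.31% and 16.1%.

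**Figure D3:**
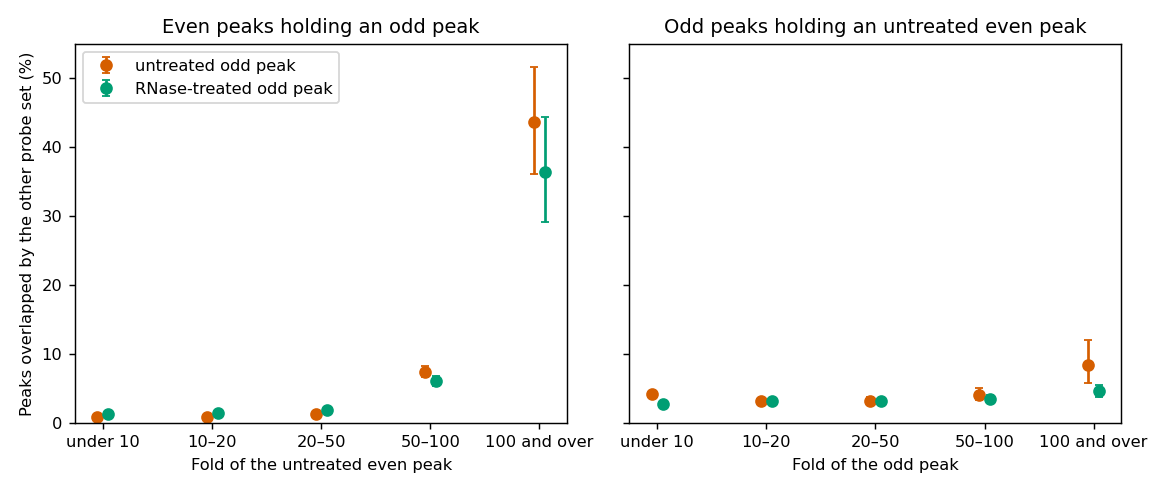
Left, share of untreated even peaks (percent) that held an untreated (orange) or RNase-treated (green) odd peak, by the fold of the even peak. Right, share of untreated (orange) and RNase-treated (green) odd peaks that overlapped an untreated even peak, by the fold of the odd peak. Bars are Wilson 95% intervals. The left panel climbs from 0.807% and 1.21% to 43.7% and 36.4% at folds of 100 and over, and the right panel stays at or below 8.36%. Only the untreated even list is drawn. At folds of 100 and over, the RNase-treated even list gave 13.1% (by even fold) and 16.1% (by odd fold) for untreated odd peaks. An even fold of 100 was reached by 151 untreated and 2129 RNase-treated even peaks, so 43.7% and 13.1% do not compare the even lists.

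Median spacing was close between the classes of a list. The distance from a summit to the nearest other summit of its list had a median of 25508.5 bp for untreated-only and 25444 bp for shared peaks of the untreated list. With RNase it was 15974 bp for RNase-only and 15463 bp for shared peaks. A longer list over the same genome is spaced more closely by construction, and with equal numbers of peaks the medians were 25606 bp for shared RNase-treated and 26510 bp for RNase-only peaks.

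A few peaks stood far from any other of their list. The most isolated shared peak of the untreated list was on chromosome 9 at 43139551 to 43139670, with no other untreated odd summit within 4684233 bp. The most isolated RNase-only peak was on chromosome 1 at 142536927 to 142537054 (1469766 bp), the first peak past the largest stretch of chromosome 1 without a peak. The most isolated shared RNase-treated peak was on chromosome 1 at 144006667 to 144006854 (866498 bp). The most isolated untreated-only peak was on chromosome X at 8590094 to 8590213 (573317 bp).

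**Figure D4:**
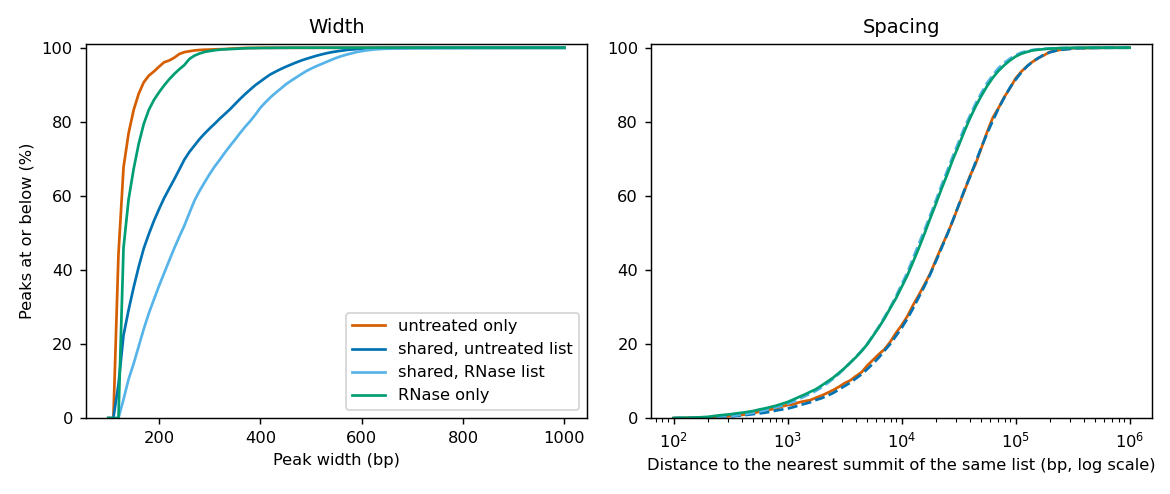
Cumulative share of peaks (percent) by width in bp (left) and by distance in bp to the nearest summit of the same list (right, log axis), for untreated-only peaks, RNase-only peaks and the shared peaks of each list. Shared peaks are dashed in the right panel, in the colours of the left one. Unmatched peaks are narrower than shared ones, and in the right panel the 2 classes of a list nearly coincide, with medians of 25508.5 and 25444 bp (untreated) and 15974 and 15463 bp (RNase-treated).

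Within 10 kb of another peak of their list lay 25.1% of untreated-only and 24.3% of shared untreated peaks, and 35.4% of RNase-only and 36.1% of shared RNase-treated peaks. Within 1 kb the unmatched classes had the higher shares, with 3.53% of untreated-only (interval 2.92 to 4.26) against 2.57% of shared untreated peaks (2.41 to 2.75). After RNase they were 4.35% of RNase-only (4.10 to 4.60) and 3.85% of shared peaks (3.65 to 4.07). Classes were mixed at 10 kb. The nearest neighbour of an untreated-only peak was itself untreated-only in 10.4% of 731 cases within 10 kb, against 8.51% for shared peaks and 8.41% in the list. Within 1 kb, the share was 25.2% (26 of 103 peaks, interval 17.8 to 34.4) against 9.29% (76 of 818) for shared peaks. Untreated-only peaks that were each other's nearest neighbour were both counted, although the interval takes them as independent draws. In the RNase-treated list the nearest neighbour within 1 kb was RNase-only for 49.8% of RNase-only and 46.3% of shared peaks.

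Untreated-only peaks also sat closer to peaks of the other odd list, which was the longer one. The gap to the nearest RNase-treated odd peak was a median of 14504 bp, and 160 of 2918 (5.48%) had one within 1 kb. For RNase-only peaks the gap to the nearest untreated odd peak was a median of 26645 bp, and 770 of 25729 (2.99%) had one within 1 kb. The neighbour within 1 kb was itself shared for 693 of these 770 RNase-only peaks (90%, where 91.6% of the untreated list was shared) and for 87 of the 160 untreated-only peaks (54.4%, where 55.2% of the RNase-treated list was shared).

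When summits of 1 class within 10 kb were joined into clusters, untreated-only peaks formed a single cluster of 3 and 39 pairs. That cluster flanked the DINO locus on chromosome 6, with peaks from 36644005 to 36644174 (fold 7.40), from 36644235 to 36644551 (fold 8.64) and from 36646633 to 36646771 (fold 5.88), on both sides of its shared peak. All 3 overlapped an untreated even peak, and the last overlapped an RNase-treated even peak too. The next cluster, by number and then by fold, was a pair on chromosome 8 between 131867093 and 131872082, with no RNase-treated odd peak and no even peak.

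A class with more peaks can form more clusters, so the numbers of clusters do not compare the classes. There were 2918 untreated-only, 31777 shared untreated and 25729 RNase-only peaks. Shared peaks formed the longest runs in the untreated list, with 436 clusters of 3 or more. The largest held 9 untreated peaks within 13090 bp on chromosome 7, between 27240467 and 27253556, with folds between 6.06 and 11.9. The RNase-treated odd list had 8 peaks in that interval, the untreated even list none and the RNase-treated even list 1. The second was a run of 7 peaks on chromosome 14 between 66270032 and 66305549 (folds up to 66.5), where the even lists had 5 and 7 peaks. After RNase the largest runs of shared peaks held 6, at 3 places: between 66270035 and 66295722 on chromosome 14, between 97149350 and 97173927 on chromosome 10, and in the run on chromosome 7 (from 27240278).

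RNase-only peaks formed 227 clusters of 3 or more. The largest held 14 weak peaks within 22829 bp on chromosome 11, between 2064355 and 2087183, with folds between 4.22 and 9.28. In that interval the RNase-treated odd list had 18 peaks in all and the untreated odd list 4. The second held 9 peaks on chromosome X between 58216520 and 58239190 (folds between 5.90 and 15.2). This cluster lay within 1 Mb of 58556253, where the largest stretch of chromosome X without a peak in any of the 4 lists began.

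All classes were spread over all 23 chromosomes. Shared untreated peaks numbered between 5.54 and 13.5 per Mb, untreated-only peaks between 0.413 and 1.49 per Mb, and RNase-only peaks between 5.68 and 9.85 per Mb, taking the last peak end as the length. The stretch before the first peak counts in that length, and on chromosomes 13, 14, 15, 21 and 22 it is long.

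The RNase-only share was highest on chromosome X, at 51.3% of 1765 RNase-treated peaks (interval 49.0 to 53.7). Chromosomes 13 (48.3%) and 6 (47.1%) followed. It was lowest on chromosomes 22 (39.3%, interval 36.1 to 42.6), 17 (40.1%) and 20 (41.8%), and its median was 44.3%. The intervals of X and of 22 did not overlap, but those of neighbours in this order did. The untreated-only share was lowest on X (6.94%, interval 5.47 to 8.77) and highest on chromosome 20 (10.2%, interval 8.44 to 12.4), and these overlapped. X was highest in RNase-only share with equal numbers of peaks too, at 24.5%, where chromosome 20 was lowest at 17.2%. With −log10 q-values from 10 up, X was highest at 45.2% and chromosome 20 lowest at 38.5%. X also had the lowest density of shared untreated peaks, 5.54 per Mb. The part of peak strength and density in the share of X was not tested.

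The chromosomes share their libraries and depth, and are no replicates. U2OS is an aneuploid line, and its DNA copy number was not analysed here.

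**Figure D5:**
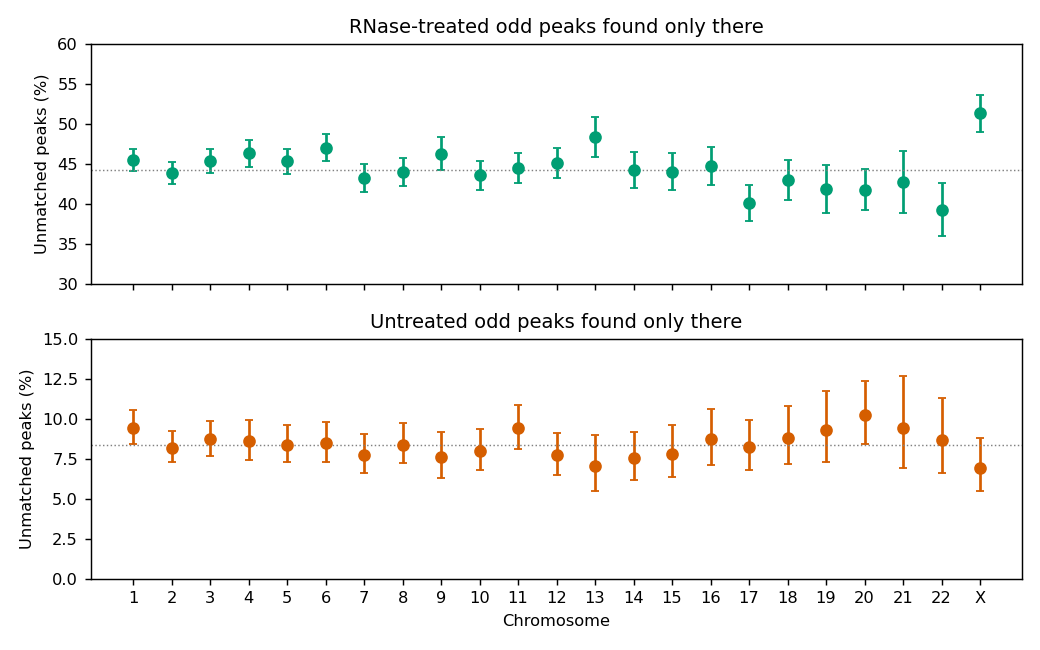
Share of RNase-treated odd peaks found only after RNase (top, green) and of untreated odd peaks found only without RNase (bottom, orange) on each chromosome, in percent, with Wilson 95% intervals. Dotted lines are the medians over the chromosomes, 44.3% and 8.38%, and the axis of the top panel starts at 30. Chromosome X has the highest RNase-only share (51.3%) and the lowest untreated-only share (6.94%).

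Within chromosomes, windows of 10 Mb with at least 50 RNase-treated peaks had RNase-only shares between 29.0% and 59.2%, with a median of 45.1% and quartiles of 41.8% and 48.7% (295 windows). The lowest window was on chromosome 17 from 70 to 80 Mb, with 75 of 259 peaks (interval 23.8 to 34.8). The highest was on chromosome 1 from 100 to 110 Mb, with 100 of 169 peaks (51.6 to 66.3). Both were picked as the extremes of 295 windows, and their intervals do not allow for that choice. Counting error is part of the range between windows.

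Untreated-only peaks were somewhat more frequent near the first or last peak of a chromosome. On chromosomes 13, 14, 15, 21 and 22 a long stretch precedes the first peak, which is thus not near the chromosome end. Within 1 Mb of the first or last peak of a chromosome lay 2.33% of untreated-only peaks (68 peaks, interval 1.84 to 2.94), 1.51% of shared untreated peaks (1.39 to 1.65) and 1.34% of RNase-only peaks (1.21 to 1.49). Within 1 Mb of the largest stretch without peaks lay 0.994% of untreated-only (0.693 to 1.42), 0.774% of shared untreated and 0.906% of RNase-only peaks, and here the intervals of untreated-only and shared peaks overlapped. Chromosomes 13, 14 and 22, whose largest such stretch was under 1 Mb, added no peak to these counts but stay in the totals.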

How the data were processed

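The 2 odd peak lists were compared, and the 2 even lists served as a further readout. Per the submitters' processing notes, Bowtie, MACS2 and the build hg19 were used; versions, thresholds and control libraries were not given in the sources used here. Peak names carry 1 library each. The deposited fold enrichment (a linear ratio) and the deposited −log10 values of p and q belong to each summit and are the authors' own, used only to rank, filter or describe peaks of a list. The deposited score was not used. Read depth is unknown.

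Coordinates are 1-based. Overlap, summit distance, spacing (summit to summit), single-linkage clusters and density were computed with pandas 2.3.3, scipy 1.17.1 and numpy 2.4.6 under Python 3.11.15 (figures: matplotlib 3.10.9). The functions were tested on simulated lists. Shares have Wilson 95% intervals and medians have order-statistic 95% intervals. Both take each peak as an independent draw, although neighbours may not be, and cover no difference between libraries. No test between libraries was run.

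The named positions were, by fold, 8 peaks or pairs of each class, and for each class the widest and most isolated peak and the 2 clusters with the most peaks. To these came the 3 largest summit shifts, the 3 smallest overlaps and gaps, and the 3 highest and lowest chromosomes. Width differences, even-list examples and fold percentiles were named after their values were seen, and the DINO locus from general knowledge. The classes, lists and alternatives were chosen with earlier results of these data known. Alternatives were other overlap rules, stricter thresholds, equal numbers of peaks, all sequences and other neighbour distances, and those of the even-list overlaps were added after the data were seen. Genes and sequences at the peaks were not analysed here, since no hg19 genome or annotation was used.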

Additional observations from a re-analysis of the deposited data

Results flagged for a closer look

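Mitochondrial DNA, which was left out of the comparisons, was covered by peaks over 4801 bp in the untreated odd list (13 peaks, highest fold 9.43) and over 2129 bp in the RNase-treated odd list (7 peaks, highest fold 3.92). It is named because the untreated library covered more of it than its RNase-treated control. Chromosome Y went the other way, with 502 bp in 4 untreated peaks and 1891 bp in 12 RNase-treated peaks.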

How the results depend on the processing

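Of 99 values recomputed under 10 alternatives, 38 stayed within the 95% interval of the reported value and 61 moved beyond it. With reciprocal overlap of at least 50%, 84.8% of untreated and 51.2% of RNase-treated peaks were shared, median widths were 125 (untreated only), 190 (shared, untreated), 235 (shared, RNase-treated) and 135 bp (RNase only), the untreated-only share over even peaks was 6.69%, and the RNase-only share of X was 55.8%. A gap of up to 500 bp gave 55.9% shared RNase-treated peaks, and folds of at least 5 gave 91.9% and 56.1% shared. Limiting −log10 q-values to 10 and above, 95.01% and 59.6% were shared, the summit shift was 16 bp, widths were 146, 226, 286 and 167 bp in the same order, nearest distances 37077, 37664, 23689.5 and 23076.5 bp, and shares within 10 kb 17.9%, 17.5%, 25.7% and 25.7%. Untreated-only and RNase-only peaks then overlapped untreated even peaks in 5.16% and 2.84%, the median even folds were 51.5, 13.2 (shared, untreated) and 13.1 (shared, RNase-treated), and X had 45.2% RNase-only peaks. With equal numbers of peaks, 80.4% and 80.2% were shared, widths were 124, 196, 261 and 165 bp, and the RNase-treated list had nearest distances of 25606 (shared) and 26510 bp (RNase only) and shares within 10 kb of 23.9% and 23.5%. Even overlaps were then 6.10% (untreated only) and 2.25% (RNase only, median even fold 12.7), and chromosomes X and 22 had 24.5% and 18.2% RNase-only peaks. Neighbours within 1 kb were found for 3.53%, 2.57%, 3.85% and 4.35% of the 4 classes, and within 100 kb for 91.7%, 91.4%, 98.0% and 97.6%. When the odd summit had to lie within an even peak, overlaps were 2.09%, 2.001% and 1.70% for shared untreated, shared RNase-treated and RNase-only peaks, with median even folds of 21.2, 22.3 and 19.5. Fewer peaks enter by construction under the stricter thresholds and with equal numbers. The shares within 1 kb and 100 kb count neighbours at another distance than 10 kb and differ by definition. Reciprocal overlap can only lower a shared share, and a gap of up to 500 bp can only raise it. The summit rule can only lower an overlap with even peaks. The cause of the remaining changes was not tested. Under the 4 settings that recomputed it (reciprocal overlap, the q-value limit, equal numbers and summit within the even peak), untreated-only peaks overlapped untreated even peaks more often than shared peaks of the same list did. The lowest RNase-only share was that of chromosome 20 with the q-value limit (38.5%) and with equal numbers (17.2%). No paired analysis was possible because each condition had 1 library. With 1 library a side, and depth unknown, no change can be told from a difference between libraries.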

Other observations

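Some shared positions held a different place in the order of folds after RNase. Over the 31623 one-to-one pairs, which are the same in both lists, the order of the folds had a Spearman rho of 0.85, given as a description. Of the 3163 pairs in the top 10% without RNase, 2733 (86.4%) were in the top 10% with RNase, and 2 were in the lower 50%. The largest fall was on chromosome 10 at 126907623 to 126907937, from the 88.2nd percentile without RNase (fold 37.7) to the 2.98th with RNase (fold 5.96). It was followed by chromosome 1 at 54102353 to 54102599 (84.5th to 4.54th percentile) and chromosome 2 at 56873921 to 56874156 (84.3rd to 5.64th). The largest rise was on chromosome 2 at 200682386 to 200682509, from the 0.757th to the 71.0th percentile. In all, 18 pairs went from the top 25% without RNase to the bottom 25% with RNase, and 3 were in the bottom 25% without and in the top 25% with RNase. These positions were picked after their values were seen, and 1 library a side gives no spread for such changes.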
